A study of Mus musculus with 7 samples.

Results

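The 34 genes described here encode the factors that start and extend protein synthesis on cytosolic ribosomes. They were taken by symbol from a list of initiation factors, elongation factors and the poly(A)-binding protein Pabpc1, and all 34 were found among the 26586 genes of the count table. Messenger RNA was measured in 7 single mouse embryos of the C57BL/6 strain, collected as morulae 3 days post coitum after matings in which the parents carried 1 mutant allele of L13a, the ribosomal protein gene with the symbol Rpl13a. The 7 embryos form 1 group, numbered as replicates 1 to 7, and no genotype, sex or litter of any embryo is given in the sources used here. Because separate litters are not stated, p-values measure only how far these samples spread, and that spread may be technical.

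Protein synthesis begins when eIF2 carries the initiator transfer RNA to the small ribosomal subunit, with eIF1, eIF1A, eIF3 and eIF5 bound beside it. The cap-binding eIF4 factors and poly(A)-binding protein recruit this complex to a messenger RNA, which it scans for a start codon, and eIF5B then joins the large subunit. Elongation factor eEF1A delivers aminoacyl transfer RNAs, eEF1B recharges it, eEF2 moves the ribosome by a codon, and eIF5A helps at difficult sequences. The mouse embryo inherits messenger RNA and ribosomes from the oocyte and replaces them with its own during early cleavage. Many messenger RNAs of this machinery, Eef1a1 and Eef2 among them, are known to start with a pyrimidine tract that makes their translation depend on growth signals.

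Totals ran from 139619 counts in replicate 6 to 33123742 in replicate 4, a 237-fold range, and replicates 3 and 6 had the lowest totals. Without molecular identifiers, amplified copies cannot be told from separate molecules, so all intervals and limits here cover counting error only. A count of 0 allows up to 3 counts, which equal 0.0906 CPM (the count scaled to a library total of 1000000) in replicate 4 and 21.5 CPM in replicate 6. Every pair of libraries differed beyond sampling noise, with a chi-square of at least 118 per degree of freedom. Rpl13a was at 86.5, 119, 5.51, 530.1, 3.26, 7.16 and 23.5 CPM in replicates 1 to 7, and no embryo was given a genotype from it. Its values in replicates 3, 5 and 6 rest on 4, 9 and 1 counts. A marker of the morula was counted in some libraries only. Pou5f1 (Oct4), which every cell of a normal morula expresses, was counted in replicates 2, 4 and 7 and had 0 counts in the other 4. Replicates 2, 4 and 7 also have the largest totals, and the part of depth was not tested. Of 8 pluripotency markers, Pou5f1 included, 2, 4, 2, 8, 2, 0 and 4 were counted in replicates 1 to 7. In bulk samples such as these, fewer cells of a type and less RNA per cell cannot be told apart.

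Sequences around annotated transcription starts are given for 5 members: Eif1, with the smallest spread between embryos, Eef2, with the largest spread of the 34, Eef1a1, the factor that brings transfer RNAs, and Eif3f and Eif2s3x, whose windows hold the longest pyrimidine tracts of the members. Each runs 5′ to 3′ on the gene's strand from 30 bases before to 20 bases after the start, from RefSeq on GRCm38.p6. Capitals mark an unbroken run of 8 or more pyrimidines or the letters TATAAA.
Eif1 (chr11:100319919-100319968, plus strand): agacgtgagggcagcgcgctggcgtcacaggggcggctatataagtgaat
Eef2 (chr10:81176601-81176650, plus strand): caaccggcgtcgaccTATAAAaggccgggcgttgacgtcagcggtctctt
Eef1a1 (chr9:78481705-78481754, minus strand): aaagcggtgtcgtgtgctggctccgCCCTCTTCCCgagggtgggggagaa
Eif3f (chr7:108934385-108934434, plus strand): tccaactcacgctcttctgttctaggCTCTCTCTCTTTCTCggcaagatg
Eif2s3x (chrX:94212632-94212681, minus strand): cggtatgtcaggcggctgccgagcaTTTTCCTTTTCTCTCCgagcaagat
RefSeq held 32 such windows for 26 of the 34 members. A pyrimidine run of 8 or more on the gene's strand lay in 6 of the 32, 18.8%, against 20.2% of all 32851 windows. TATAAA, searched on both strands in the 50 bases before the start, lay in 1 of the 32, that of Eef2, and in 3.50% of all windows. A match describes these letters and is not evidence of a working site.

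Replicate 4 stood apart from the other embryos in the amount of translation factor RNA. All 34 members were counted there, and together they took 2.96% of its counts (95% Clopper-Pearson interval 2.95 to 2.96). In replicates 1, 2, 3, 5, 6 and 7 the share was 0.672, 0.912, 0.900, 1.42, 1.24 and 0.794%. The median member stood at 29.3, 105, 28.2, 543, 125, 0 and 50.1 CPM in replicates 1 to 7. Replicate 4 was highest for 20 of the 34 members, whereas it was highest for 29.6% of the 11810 genes with a mean of at least 1 CPM, the genes tested throughout. Without replicates 3 and 6, a comparison added after seeing the data, it was highest for 24 members and for 33.1% of those genes. Replicate 4 also had 9 of 10 trophectoderm markers counted, against 1 to 7 elsewhere, and 84.0% of all tested genes were counted there. These markers summed to 4102 CPM in replicate 4, 3065 CPM in replicate 6 and at most 340 CPM in the other embryos. All 8 pluripotency markers were counted in replicate 4 too, with 1090 CPM in sum. The 16 oocyte markers summed to 39.4 CPM in replicate 4, against 612 to 19173 CPM in the other embryos. The part of any of these cells and stages in the level of the factors was not tested.

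**Figure D1:**
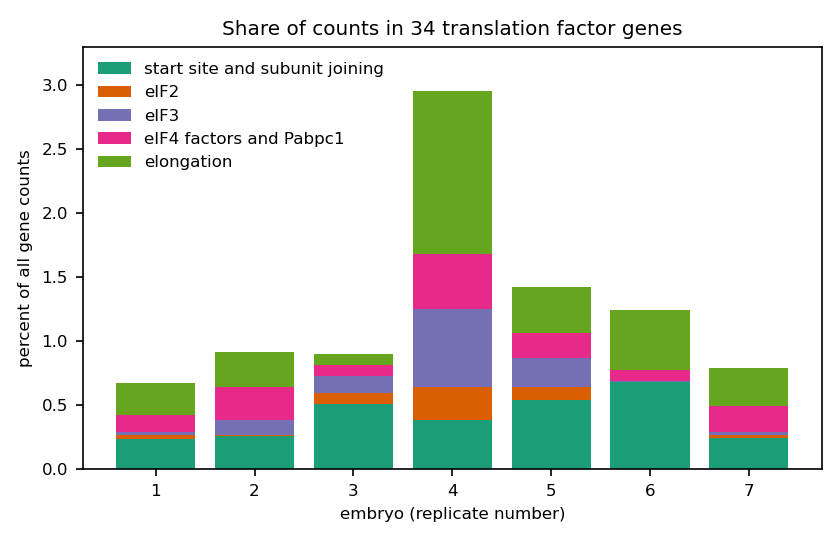
Share of all gene counts taken by the 34 translation factor genes in each embryo, in percent, stacked by role. Replicate 4 reaches 2.96% and the other 6 embryos lie between 0.672 and 1.42%.

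Between 12 and 34 of the factors were counted in an embryo. Members with at least 1 count numbered 24, 34, 20, 34, 32, 12 and 31 of 34 in replicates 1 to 7. The same was true of 41.7, 72.1, 29.0, 84.0, 27.7, 14.8 and 69.5% of the 11810 genes. After every library was thinned to the lowest total, the numbers were 20, 32, 19, 34, 26, 12 and 26 members, and 32.8, 57.4, 23.8, 69.0, 19.7, 14.8 and 55.2% of the tested genes. A total of 10 of the 34 members were counted in all 7 embryos, against 3.69% of tested genes. These were Eif1, Eif5, Eif3i, Eif4a1, Eif4b, Eif4e, Eif4g2, Pabpc1, Eef1a1 and Eif5a. Without replicates 3 and 6 the number was 22, against 14.03% of tested genes.

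**Figure D2:**
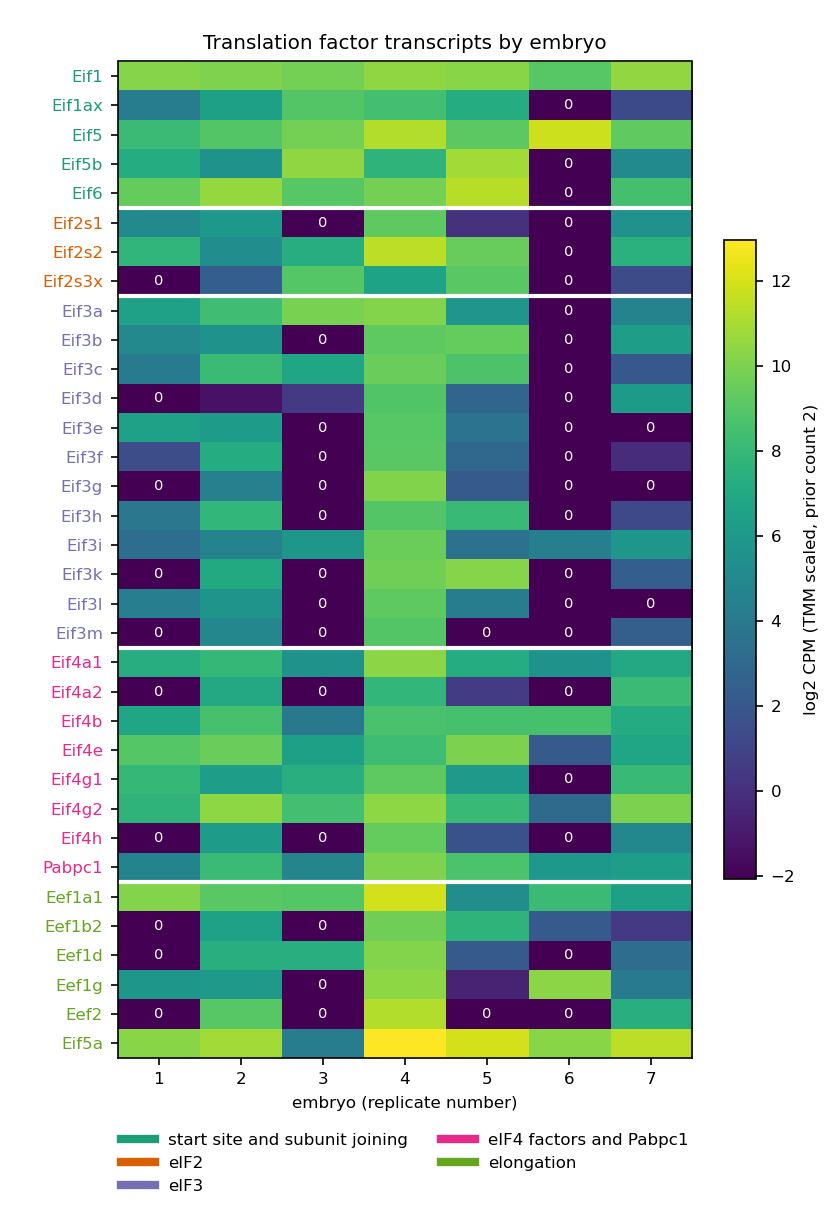
TMM-scaled log2 CPM of the 34 members (down the page, coloured by role) in the 7 embryos (across), with a white 0 where no read was counted. Replicate 4 has no 0, replicate 6 has 22, and Eif1 is nearly even across its row.

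Factors of start site selection included the most even transcript of the table. Eif1, which keeps the scanning ribosome from starting at wrong codons, was at 1204, 847, 1089.9, 1030.4, 1022, 902 and 1404 CPM in replicates 1 to 7. All 7 embryos thus lay within a narrow band, although their totals differed 237-fold. Its log2 CPM averaged 10.05 ± 0.49 (SD, n = 7), the lowest SD of all 11810 genes, with Serf2 next at 0.51. Eif1 kept that first place in 5 of 14 alternative settings, was 13th at worst in 8 others, and was 1036th after thinning, where its SD was 0.34. Eif5, which triggers GTP hydrolysis by eIF2 at the start codon, had its lowest level, 295 CPM, in replicate 1 and its highest, 5945 CPM, in replicate 6, with a median of 615 CPM. Its SD of 1.29 was the second lowest of the members.

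The other members of that role were counted in every embryo but replicate 6. Eif1ax, which encodes eIF1A on the X chromosome, was at 20.1, 70.4, 589.8, 262, 124, 0 and 2.16 CPM in replicates 1 to 7. Replicate 3 was highest and replicate 7, with a much larger total, had 37 counts. Eif5b, the GTPase of subunit joining, peaked in replicates 3 and 5, at 1678 and 1586 CPM, and stayed at 32.5 to 154 CPM in replicates 1, 2, 4 and 7. Eif6, which keeps the large subunit from joining too early, was between 366 CPM in replicate 7 and 2178 CPM in replicate 5 wherever it was counted. In replicate 6 the 5 genes of this role made up 55.0% of all factor counts, with 830 of their 956 counts from Eif5. In replicate 4 they made up 12.96%.

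The 3 subunits of eIF2 did not keep to a common ratio. Eif2s1, the alpha subunit that stress kinases phosphorylate, was at 34.1, 49.2, 0, 438, 0.723, 0 and 44.0 CPM in replicates 1 to 7. Eif2s2, the beta subunit, was at 235, 32.2, 186, 2046, 596, 0 and 177 CPM. Eif2s3x, the X-linked gamma subunit that binds the transfer RNA, was at 0, 4.13, 619, 72.8, 464, 0 and 2.34 CPM. Per kilobase of exon, the scale on which genes can be compared, Eif2s2 was the highest of the 3 in replicates 1, 4 and 7, Eif2s3x in replicates 3 and 5, and Eif2s1 in replicate 2. In replicate 4 the highest and lowest differed 15.9-fold on that scale. The Y-linked copy Eif2s3y had 0 counts in all 7 embryos, and replicate 6 had 0 counts for all 3 subunits.

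Subunits of eIF3, the scaffold that holds the initiation complex together, were closer to each other in replicate 4 than in the other embryos, where they were patchy. All 12 were counted in replicate 4, between 348 CPM for Eif3d and 829 CPM for Eif3a. Per kilobase they spanned 58.0 for Eif3e to 414 for Eif3g, a 7.14-fold range. The coefficient of variation per kilobase was 59.2%, against 103 to 346% in the other embryos. Replicate 2 also had all 12, but over a 4896-fold range per kilobase, set by Eif3d with 2 counts. Replicates 1, 3, 5, 6 and 7 had 8, 4, 11, 1 and 9 of the 12. Of all tested genes, 41.7, 29.0, 27.7, 14.8 and 69.5% were counted in those embryos. The shares were 84.0% in replicate 4 and 72.1% in replicate 2. Libraries with gaps in eIF3 had gaps in other genes too, but not in the same order. Replicate 5 had 11 of 12 subunits with 27.7% of genes, and replicate 7 had 9 with 69.5%. The subunits took 0.609% of counts in replicate 4, against 0.00358 to 0.223% in the other embryos.

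**Figure D3:**
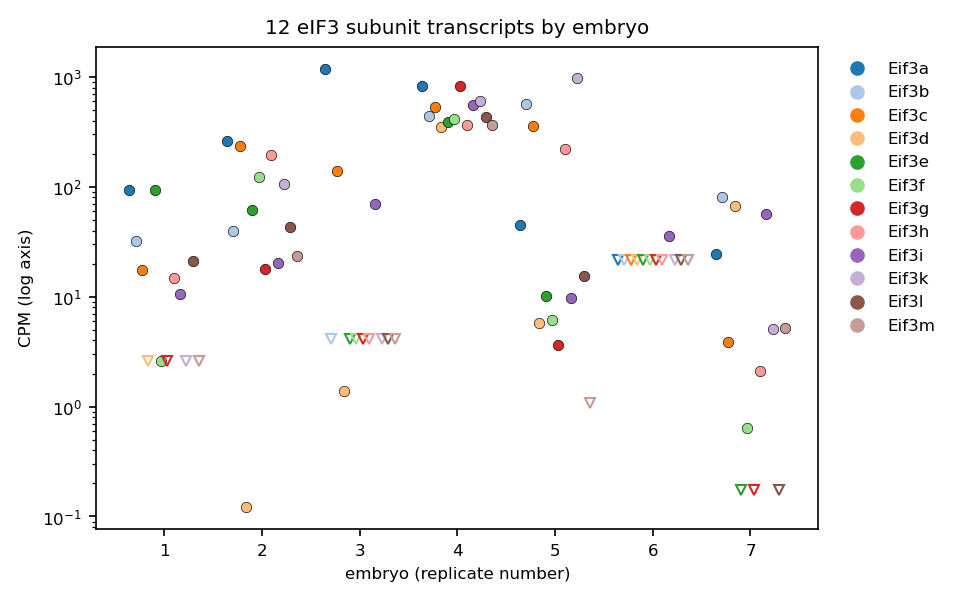
CPM of the 12 eIF3 subunit genes in each embryo on a log axis, with filled circles for counted genes and open triangles, drawn at the CPM of 3 counts, for genes with a count of 0. Replicate 4 holds all 12 within 348 to 829 CPM, and replicate 6 holds 1 circle, Eif3i.

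Eif3i, a WD-repeat subunit, was the eIF3 gene counted in all embryos, at 10.5, 20.2, 70.3, 558, 9.77, 35.8 and 56.2 CPM in replicates 1 to 7. The value of replicate 6 rests on 5 counts (95% Poisson interval 11.6 to 83.6 CPM). Eif3a, the largest subunit, peaked at 1182 CPM in replicate 3, where it supplied 858 of the 1011 eIF3 counts. Its median was 92.7 CPM. Eif3b, another large subunit, was highest in replicates 5 and 4, at 569 and 445 CPM, with 0 in replicates 3 and 6. Eif3c, a further large subunit, was highest in replicates 4 and 5, at 528 and 357 CPM, with 3.85 CPM in replicate 7.

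Several other subunits were well above their floor in replicate 4 and close to 0 in replicate 2 or replicate 7, though not in both. Eif3d, known to bind the cap of selected messenger RNAs, had 11512 counts in replicate 4 and 1135 in replicate 7, and 0, 2, 1, 16 and 0 counts in replicates 1, 2, 3, 5 and 6. The 2 counts of replicate 2 came from a total of 16452890, close to that of replicate 7. Eif3g, an RNA-binding subunit, was found in replicates 2, 4 and 5, at 18.0, 821 and 3.62 CPM, with 0 counts in the other 4. In replicate 7 its 0 counts allow up to 0.175 CPM. Eif3m was at 362, 23.6 and 5.14 CPM in replicates 4, 2 and 7 and had 0 counts elsewhere. Eif3k was highest in replicate 5, at 983 CPM, above the 601 CPM of replicate 4, with 105 CPM in replicate 2. Eif3e, Eif3f, Eif3h and Eif3l were highest in replicate 4, at 390, 410, 363 and 435 CPM, in that order of genes. Their medians over the 7 embryos were 10.1, 2.62, 14.9 and 15.6 CPM. Eif3e and Eif3l had 0 counts in replicate 7 and Eif3f had 11. In replicate 2, however, Eif3e, Eif3f, Eif3h and Eif3l were at 61.5, 124, 193 and 42.7 CPM. Eif3h was also at 222 CPM in replicate 5.

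Of the 8 cap-binding factors and Pabpc1, 5 were counted in all embryos. The median SD of their log2 CPM was 2.61, against 4.06 for the start site genes, the next lowest role. Without replicate 6 the order turned, with 1.68 for these genes and 1.03 for the start site genes. Eif4a1, the RNA helicase of the cap-binding complex, was at 162, 197, 57.9, 945, 126, 78.8 and 127 CPM in replicates 1 to 7. Replicate 4 was 16.3-fold above replicate 3, and the other embryos lay between. Eif4b, which stimulates that helicase, was at 114, 310.0, 19.3, 288, 324, 637 and 141 CPM. Eif4h, a related stimulator, stood at 58.2, 496, 2.53 and 30.1 CPM in replicates 2, 4, 5 and 7, with 0 counts in replicates 1, 3 and 6.

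Eif4e, which binds the cap itself, ran from 7.16 CPM in replicate 6, a single count, to 852 CPM in replicate 5, with a median of 229 CPM. Replicate 4, the highest embryo for most members, was at that median. Eif4g1, the scaffold that joins cap, helicase and eIF3, was at 251, 66.7, 204, 444, 55.7, 0 and 265 CPM in replicates 1 to 7. Eif4g2 (DAP5), a scaffold for cap-independent initiation that lacks the cap-binding protein's docking site, was at 215, 1078, 429, 972, 219, 14.3 and 1011 CPM. The deepest 3 libraries thus held the 3 highest levels of Eif4g2. Pabpc1, which binds the poly(A) tail and loops it to eIF4G, was lowest in replicate 1 at 26.2 CPM and highest in replicate 4 at 764 CPM, with a median of 100.3 CPM.

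Shares within gene families changed from embryo to embryo. Eif4a1 gave 30.7% of the counts of Eif4a1 and Eif4a2 in replicate 7 (95% Clopper-Pearson interval 29.6 to 31.8), 65.3% in replicate 2 (64.0 to 66.6) and 84.8% in replicate 4 (84.5 to 85.2). In replicates 1, 3, 5 and 6 it gave 99.1 to 100%. Adjusted for length, the shares of replicates 2, 4 and 7 were 69.9, 87.3 and 35.3%. Eif4a2, its near copy, had 169 and 287 CPM in replicates 4 and 7. These intervals do not overlap, so the 3 deep libraries differed beyond counting error, while the embryo-to-embryo error is not known from single libraries.

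Among cap-binding proteins Eif4e supplied 82.3, 80.1, 16.0, 48.6, 99.6, 8.33 and 24.6% of the counts of Eif4e, Eif4e1b, Eif4e2 and Eif4e3 in replicates 1 to 7. The value of replicate 6 is 1 of 12 counts. Adjusted for exon length, the shares of Eif4e were 63.6, 68.8, 7.36, 54.0, 99.7, 3.33 and 12.5%. Pabpc1 supplied 7.59, 68.5, 11.1, 57.7, 22.4, 100 and 30.01% of the counts of Pabpc1, Pabpc1l and Pabpc4, where Pabpc1l is the form known from oocytes. The value of replicate 6 is 14 of 14 counts. Pabpc1l itself had 110 counts in replicate 2, 64 in replicate 7 and 0 elsewhere. Pabpc4 had 365, 1674, 193, 18518, 3359, 0 and 2970 counts in replicates 1 to 7. Wherever Pabpc1 fell short of 100%, most of the remainder was thus Pabpc4. Adjusted for length, Pabpc1 supplied 4.82, 56.6, 7.11, 45.7, 15.1, 100 and 20.7%. Eif4g2 supplied 44.2% of the Eif4g family in replicate 1 and 93.6% in replicate 2, or 36.9% and 91.6% adjusted for length. Eif1 supplied at least 86.4% of the counts of Eif1 and Eif1b in every embryo, or at least 77.4% adjusted for length. Reads that match several family members or processed pseudogenes could have been counted for either, so these splits are uncertain.

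**Figure D4:**
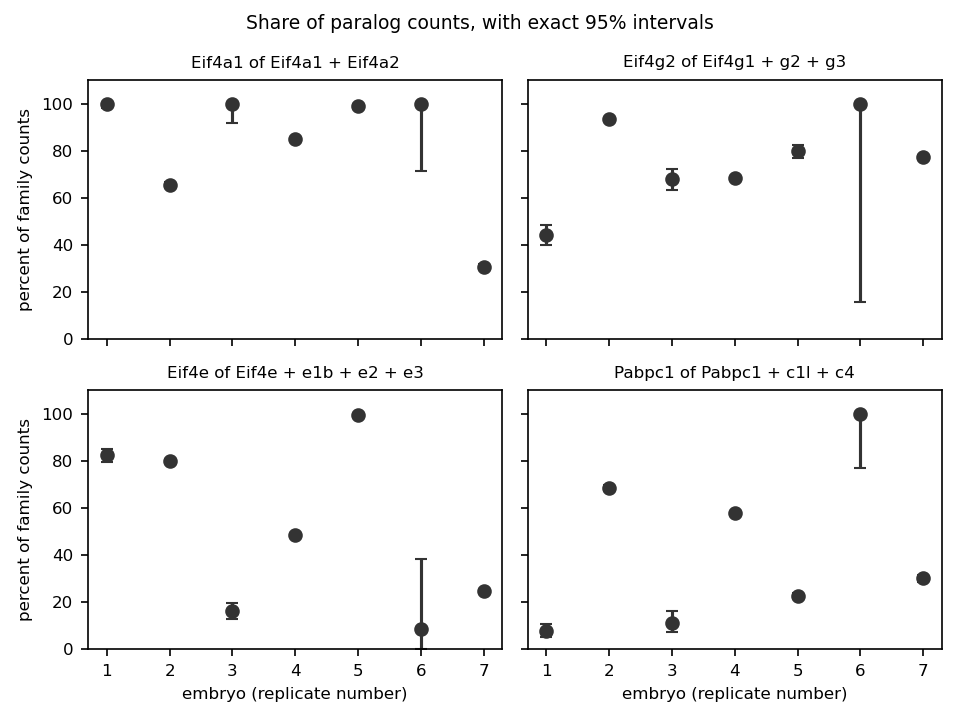
Percent of counts within a gene family taken by the named member in each embryo, with 95% Clopper-Pearson intervals. The share of Eif4a1 is 100% in 3 embryos and 30.7% in replicate 7, and Pabpc1 ranges from 7.59% to 100%.

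Elongation factors included the most abundant and the most variable members. Eif5a, whose hypusine residue is needed for its activity, was at 1260, 1541, 23.4, 5791, 3382, 2041 and 2724 CPM in replicates 1 to 7. Per kilobase it was the highest member in replicates 2, 4, 5 and 7, while Eif1 was in replicates 1 and 3 and Eif5 in replicate 6. Its median of 859 CPM per kilobase ranked first of the 34, before Eif1 at 491 and Eif6 at 245 CPM per kilobase. In replicate 3 it had 17 counts. The second isoform gene Eif5a2 had 2235 counts in replicate 2, 7 in replicate 7 and 0 in the other 5 embryos.

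Eef2, which moves the ribosome along the message, had 0, 6917, 0, 58200, 0, 0 and 2875 counts in replicates 1 to 7, or 420.4, 1757 and 168 CPM in replicates 2, 4 and 7. The 3 embryos with counts are those with the 3 largest totals, but the 0 of replicate 5 came from 2764409 counts and allows up to 1.09 CPM. The SD of its log2 CPM, 6.14, was the largest of the members and the eighth largest of 11810 genes. Without replicate 4 it was 377th.

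Eef1a1, which brings aminoacyl transfer RNA to the ribosome, was at 1183, 449.6, 608, 2795, 34.004, 473 and 85.3 CPM in replicates 1 to 7. Replicates 5 and 7, with far more counts than replicate 6, were the lowest. Its muscle and nerve counterpart Eef1a2 had 0 counts in all 7 embryos. The subunits of eEF1B, the exchange factor that reloads eEF1A with GTP, were uneven. Eef1g, the gamma subunit, was highest in replicates 6 and 4, at 2199 and 989.7 CPM, and had a single count, 0.362 CPM, in replicate 5. Eef1b2, the catalytic beta subunit, had 615 CPM in replicate 4 and no count in replicates 1 and 3. Eef1d, the delta subunit, was highest in replicates 4 and 3, at 852 and 208 CPM, with no count in replicates 1 and 6. The 6 elongation genes took 1.28% of counts in replicate 4 and 0.0839 to 0.472% in the others.

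With all embryos included, the median factor spread more between embryos than the median gene. The median SD of log2 CPM was 4.37 for the 34 members and 3.63 for the 11810 tested genes, and 24 of the 34 lay above the median of all genes. Members were also found at both ends, with 4 in the lowest 1% of SDs (Eif1, Eif5, Eif4a1 and Eif4b) and 2 in the highest 5% (Eef2 and Eif3k). By role, 11 of 12 eIF3 genes, 3 of 3 eIF2 genes, 4 of 6 elongation genes, 3 of 5 start site genes and 3 of 8 eIF4 and Pabpc1 genes were above the median of all genes. The higher median of the members rested largely on replicate 6, the library with 139619 counts. Without it the median SD was 3.66 for the members and 3.68 for all genes, and 17 members were above the median of all genes. Without replicate 4 the medians were 3.62 for the members and 3.49 for all genes, and 20 members were above. Without replicates 3 and 6 the medians were 2.96 and 3.78, and 14 members were above. After thinning each library to 139619 counts, the median SD was 2.17 for the members and 1.25 for all genes, and 33 members were above it. Among the 7716 genes with a mean of at least 10 CPM, the medians were 4.38 for the members and 4.05 for all. In that setting 23 members were above. None of these medians compares genes matched for abundance.

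**Figure D5:**
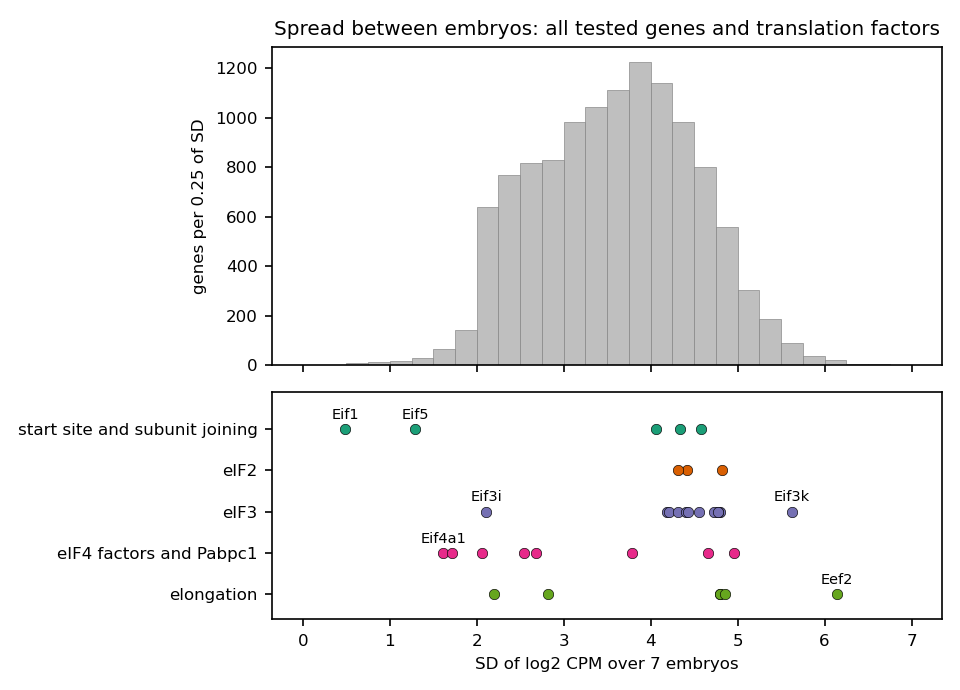
Above, a histogram of the SD of log2 CPM over 7 embryos for the 11810 tested genes; below, the same SD for each of the 34 members, 1 point a gene, by role. Eif1 lies at the left end with 0.49, Eef2 at the right end with 6.14, and 11 of the 12 eIF3 points lie above 3.63, the median of all genes.

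Whether any factor varied more than genes of like abundance was tested with the quasi-likelihood dispersion of edgeR against its trend. None of the 34 members and 0 of 11810 genes passed at an adjusted p of 0.05 (0% of genes called), with a lowest adjusted p of 0.869. At an unadjusted p of 0.05, 68 genes passed, and DESeq2 and limma on the authors' table called 0. A common dispersion of 9.02, a coefficient of variation of 3.00 between embryos, sets what could be seen: in simulated counts at that dispersion 0% of 200 genes with 20-fold added dispersion were recovered, against 93% at a dispersion of 0.1. A miss in this test therefore does not show that the factors vary like other genes.

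Because the parents carried the L13a mutation, the level of each gene was also set against that of Rpl13a across the 7 embryos. The Rpl13a level is itself uncertain in replicates 3, 5 and 6, where it rests on 4, 9 and 1 counts. In edgeR's quasi-likelihood test 0 members and 0 of 11809 genes had a slope past an adjusted p of 0.05 (0% of genes called), and 2366 genes had an unadjusted p under 0.05. The lowest adjusted p was 0.114, a tied value that the Benjamini-Hochberg adjustment gave to many genes. Eif3m was among them, with an unadjusted p of 0.00976 in this test. In simulated counts at the real dispersion this test recovered 0% of 200 genes given a log2 slope of 1, against 100% at a dispersion of 0.1. DESeq2 called 494 of 9061 genes, 5.45%, and 0 members, for which the lowest adjusted p was 0.0745. Without replicate 7 edgeR called 1721 of 11218 genes, 15.3%, and 1 member, Eef2, with an adjusted p of 0.0468.

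Ribosomal protein genes did not keep a fixed ratio to the factors. The 77 ribosomal protein genes took 0.705, 1.88, 0.721, 6.80, 6.78, 1.55 and 0.604% of counts in replicates 1 to 7. They had 1.05, 2.06, 0.801, 2.30, 4.77, 1.24 and 0.761 counts for each factor count. Replicates 4 and 5 had nearly equal ribosomal protein shares, while their factor shares were 2.96% and 1.42%.

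A further 81 genes of the pathway were listed. They cover eIF2B, the eIF2 kinases and phosphatases, further initiation and elongation factors, release factors, poly(A)-binding relatives, mTOR signalling and mitochondrial factors. All 81 were in the table, 74 were tested, and 0 passed either edgeR test. At least 1 count was found for 34, 58, 24, 69, 32, 17 and 59 of the 81 in replicates 1 to 7. Among all 11810 tested genes the shares counted were 41.7, 72.1, 29.0, 84.0, 27.7, 14.8 and 69.5%. Ddx3x, an RNA helicase that aids scanning, was counted in every embryo, at 1911, 796, 5683, 650.2, 862, 1175 and 1578 CPM. Dohh, which completes the hypusine of eIF5A, was at 0, 223, 0, 515, 1358, 0 and 0.175 CPM. Paip1, a partner of poly(A)-binding protein, was at 1847, 331, 85.4, 18.4, 1.09, 85.9 and 416 CPM, with replicates 4 and 5 among the 3 lowest.

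Markers of other cells and stages differed between the libraries. Sums over 16 oocyte markers were 10555, 11287, 11830, 39.4, 612, 4333 and 19173 CPM in replicates 1 to 7, with 13, 16, 11, 10, 6, 7 and 16 counted. Omt2b, the highest of them by mean, was at 1781, 4971, 3103, 1.57, 577, 2607 and 6719 CPM. The 10 trophectoderm markers summed to 165, 340.3, 2.76, 4102, 280.0, 3065 and 168 CPM, with 2, 7, 1, 9, 1, 1 and 2 counted, and Elf5 was at 0 in all. The sum of replicate 6 is Dab2 alone, at 428 counts, with the other 9 at 0. The 8 pluripotency markers summed to 9.62, 349.8, 17.9, 1090.1, 51.7, 0 and 376 CPM. Oviduct and uterus markers, 8 in all, summed to 0 to 6289 CPM, with the highest sum in replicate 6, where the leading gene Lcn2 was at 1490 CPM. Cumulus and granulosa markers had 1 count in all libraries together, of Tnfaip6, and blood markers summed to at most 129 CPM, all from Csf1r in replicate 6. The part of these cells and stages in the spread of the factors was not tested.

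Genes lay on 14 chromosomes of GRCm38, in the GENCODE M21 annotation. Eif1 (ENSMUSG00000035530.13) spans chr11:100319885-100322096 and Eef2 (ENSMUSG00000034994.10) spans chr10:81176631-81182498, both on the plus strand. Eif5a spans chr11:69916714-69921958 and Eef1a1 spans chr9:78478449-78489151, both on the minus strand. Of the 34, 7 overlap a gene on the opposite strand, 5 of them a protein-coding one, and Eef1d overlaps the coding gene Naprt on its own strand. The sources used here do not say whether counting used strand, so reads of such pairs cannot be told apart.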

How the data were processed

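RNA from 7 single embryos was amplified with SMART-Seq v4 and made into Nextera XT libraries, per the labels' protocols. The deposited table holds raw read counts per gene, made with HISAT2 2.0.5 and featureCounts 1.5.0-p2 on GRCm38, per the submitters' processing notes. A second deposited table holds log2 values by the authors; log2 CPM with an offset of 0.5 and quantile normalization gave the same values. Members and gene lists were chosen with earlier results of these data known. Named are all 34 members, Rpl13a, the paralogs in the family shares and, for each other list, the gene with the highest mean CPM; Serf2, Elf5 and Naprt were named after their values were seen.

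Genes with a mean of at least 1 CPM, 11810 in all and 34 of 34 members, were tested with edgeR 4.0.16 (TMM, quasi-likelihood, Benjamini-Hochberg at 0.05) in R 4.3.3. The dispersion test is one-sided and the Rpl13a slope test two-sided. log2 CPM used a prior count of 2. Alternatives were DESeq2 1.42.0, limma 3.58.1 on the log2 table, other scalings, filters and prior counts, thinning to 139619 counts, and leaving out embryos. Both edgeR tests were tried on simulated data, and the alternatives were not. Totals were 139619 to 33123742 counts. Lengths are merged exons of GENCODE M21. No embryo was assigned a genotype.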

Additional observations from a re-analysis of the deposited data

Results flagged for a closer look

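Of 37 sets of 7 values examined (the log2 CPM of each member and 3 summaries per embryo), 8 had an embryo far from the other 6, as judged by the gap to its nearest neighbour divided by the whole range. Chance flags about 1 in 20 such sets at Dixon's 95% limit, and the sets share the same libraries.

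Replicate 4 stood high for the share of counts taken by the members, 2.96% against 1.42% in the next embryo (gap over range 0.673), and for Eif3i, with a log2 CPM of 9.58 against 5.87 (0.599). Replicate 6 stood low for Eif6, which had 0 counts there (log2 CPM of -2.07 against 8.55, 0.791), and for Eif4g1, also at 0 counts (-2.07 against 6.07, 0.719). It stood low too for Eif4g2, with 2 counts (3.14 against 7.71, 0.631), and for the median log2 CPM of the members (-2.07 against 4.54, 0.569). Replicate 3 stood low for Eif5a, with 17 counts (4.29 against 10.25, 0.688), and for Eif4b (4.02 against 6.79, 0.603). Replicates 3 and 6 have the lowest totals, and the part of depth in these gaps was not tested.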

How the results depend on the processing

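No paired analysis was possible because all embryos form 1 group. Of the alternatives for results over all members or genes, 133 stayed close to the reported value and 9 moved. A median SD was called close if it shifted by less than 1.36, the SD of the members' own SDs. The members' 3.66 without replicate 6 is therefore among the 133. Many others of the 133 are tests that called 0 in both settings. The members' median SD was above that of all genes in the main setting and below it without replicate 6 (3.66 against 3.68) and without replicates 3 and 6 (2.96 against 3.78). The number of genes past the Rpl13a slope test was 0 with edgeR, 494 with DESeq2, and 0 to 1721 when each embryo was left out, with 3 without replicate 5 and 1721 without replicate 7. Members past it numbered 0 to 1 over these, with 1 without replicate 7. The median SD of log2 CPM was 2.17 for the members and 1.25 for all tested genes after thinning. Members above the median of all genes numbered 14 without replicates 3 and 6. Members counted in all embryos numbered 22 without those replicates, an alternative chosen after seeing the data. The causes were not tested. For SDs of single members, 436 values stayed close and 40 moved. Depth limits what a 0 means: the floor is 21.5 CPM in replicate 6.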

Other observations

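Genes of the wider pathway had their highest levels in different embryos. Larp1, which binds messages with a terminal pyrimidine tract, was at 0, 6.81, 75.8, 399, 669, 0 and 19.0 CPM in replicates 1 to 7. Gfm2, a mitochondrial ribosome recycling factor, was at 1255 CPM in replicate 5 and at most 53.7 CPM in the others. Eif2b4, a subunit of the factor that reloads eIF2 with GTP, was at 2836 CPM in replicate 6, 455 in replicate 2, 186 in replicate 4, 47.8 in replicate 7 and 12.4 in replicate 3, with 0 counts in replicates 1 and 5. Ppp1r15a, a phosphatase subunit that reverses eIF2 phosphorylation, was at 221, 266, 0, 77.8, 8.68, 0 and 134 CPM. Etf1, the release factor that reads stop codons, was counted in all 7 embryos, at 42.8, 160.5, 186, 400.0, 667, 7.16 and 270.4 CPM. No embryo was highest for all of these genes.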
